A study of Mus musculus with 23 samples.

Results

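Collagens are the triple-helical proteins of the extracellular matrix, and their genes were taken here as all probe sets, the groups of short oligonucleotides that stand for 1 transcript on the array, annotated to exactly 1 gene with a symbol of the form Col, number, a, number. That rule gave 36 genes out of 12393 named alone by a probe set, and 58 probe sets out of 22626 on the array; 17 of the genes had 1 probe set, 16 had 2 and 3 had 3. The expression data came from male adult mice of the Bion-M1 biosatellite mission, of the strain written C57/BL6 in the sample labels and C57BL/N6 in the design text. Bion Flown (BF) mice spent 30 days in microgravity, Bion Ground (BG) mice lived for the same time on the ground in the flight habitat, and Flight Control (FC) mice were kept in a standard animal facility. RNA of *longissimus dorsi* (LD), a postural muscle along the spine, was measured in 5 BF, 5 BG and 5 FC mice, and RNA of tongue (TN) in 3 BF, 3 BG and 2 FC mice. The flown tissues were taken hours after landing rather than in orbit, and BF against FC changes flight and habitat together. Values are log2 RMA expression, so a difference of 1 is a doubling, and the level of a gene was read from its brightest probe set. Array medians ran from 6.42 to 6.61, and the number of arrays limits the precision.

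Collagen chains assemble as trimers in the endoplasmic reticulum, where prolines and lysines are hydroxylated and the chaperone Serpinh1 (HSP47) holds the helix, and are then trimmed, assembled and crosslinked outside the cell. In skeletal muscle, fibroblasts make most of the fibrillar types I, III and V of the endomysium and perimysium, type VI forms beaded microfilaments around the fibres, and type IV is the network of the basement membrane. Fibril-associated collagens (FACITs) decorate fibrils or link them to other structures, and tendon adds much type I collagen where a muscle attaches.

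The 36 genes comprised 9 fibrillar, 6 basement membrane, 3 beaded filament, 9 FACIT, 2 multiplexin, 3 transmembrane and 4 short chain or anchoring genes. Several lie side by side in the mouse genome: Col3a1 and Col5a2 share a stretch of chromosome 1 with no coding gene between them, as do Col4a3 and Col4a4 on the same chromosome, Col6a1 and Col6a2 on chromosome 10, Col4a1 and Col4a2 on chromosome 8, and Col4a5 and Col4a6 on chromosome X. Promoter windows from RefSeq (GRCm38.p6) were found for 27 of the 36 genes, 30 windows in all. Of the 250 bases before the transcription start, 53.3% of the collagen windows held the GC box letters GGGCGG, 40% the letters CCAAT and 16.7% the letters TATAAA on either strand, against 32.7%, 33.8% and 12.4% of 32851 windows of all genes. These 3 sets of letters do not overlap one another, and a match is a description of sequence and not a binding site. The sequences of 4 genes that recur in the results are shown because they differ in composition, with any such letters in capitals, 5′ to 3′ on the gene's strand. Col1a2, a type I chain (chr6:4505368-4505617, plus strand), Col3a1, the type III chain (chr1:45311288-45311537, plus strand), Col6a3, the long chain of type VI collagen (chr1:90843972-90844221, minus strand), and Col17a1, the hemidesmosome collagen (chr19:47692043-47692292, minus strand), read as follows.
Col1a2: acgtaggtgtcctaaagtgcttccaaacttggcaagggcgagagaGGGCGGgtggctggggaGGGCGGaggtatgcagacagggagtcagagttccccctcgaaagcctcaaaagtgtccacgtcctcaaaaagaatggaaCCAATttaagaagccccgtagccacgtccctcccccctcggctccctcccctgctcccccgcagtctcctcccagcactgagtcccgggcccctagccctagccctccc
Col3a1: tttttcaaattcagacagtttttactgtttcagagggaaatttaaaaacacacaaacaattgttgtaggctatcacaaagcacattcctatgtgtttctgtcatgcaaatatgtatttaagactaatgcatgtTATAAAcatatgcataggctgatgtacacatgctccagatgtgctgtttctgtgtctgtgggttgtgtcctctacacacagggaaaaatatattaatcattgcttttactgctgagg
Col6a3: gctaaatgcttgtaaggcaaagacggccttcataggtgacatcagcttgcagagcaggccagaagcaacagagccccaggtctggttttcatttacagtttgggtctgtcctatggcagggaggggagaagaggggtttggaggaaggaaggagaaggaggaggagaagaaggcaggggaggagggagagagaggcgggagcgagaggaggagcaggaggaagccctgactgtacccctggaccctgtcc
Col17a1: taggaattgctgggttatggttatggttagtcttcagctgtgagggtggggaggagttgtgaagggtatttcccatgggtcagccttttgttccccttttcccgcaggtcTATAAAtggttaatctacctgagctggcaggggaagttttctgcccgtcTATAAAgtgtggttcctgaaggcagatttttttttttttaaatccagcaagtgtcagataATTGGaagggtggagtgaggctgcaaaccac
The Col1a2 window held 62% G and C with 2 GC boxes and 1 CCAAT, and the Col6a3 window 57.2% with none of the letters searched. The Col3a1 window was at 35.2%, against a median of 52.4% over all windows, with 1 TATAAA. The Col17a1 window had 2 TATAAA and 1 CCAAT on the opposite strand.

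The tissues behaved as labelled with respect to their markers. Skeletal muscle markers averaged 13.7 to 14.0 in LD arrays and 12.1 to 13.2 in TN arrays, and epithelial markers averaged 4.96 to 5.28 in LD against 11.2 to 11.5 in TN, so the tongue samples included mucosa. The mean of 6 tendon genes ran from 6.60 to 9.86 in LD and from 5.77 to 6.41 in TN. In LD the highest values were those of FC replicates 1 and 3. Collagens varied more than other probe sets in LD, with a median standard deviation within groups of 0.315 against 0.186 over all probe sets. The medians in TN lay close together, at 0.168 for the collagens and 0.164 over all probe sets. Of the 58 collagen probe sets, 47 varied more in LD than in TN. Because all levels are from bulk tissue, fewer cells of a type and less RNA per cell cannot be told apart. The labels number the samples of a group without saying which animal each came from, so p-values measure the spread between these samples.

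In LD, the question of flight against the matched habitat was asked by BF against BG. Type VI collagen chains Col6a2 and Col6a3, the type III chain Col3a1, the type V chain Col5a2 and the FACIT Col14a1 fell in flown mice, by 0.77 to 1.27 on the log2 scale, and no collagen rose. These were 6 of 58 probe sets (10.3%, 5 genes), against 3.83% of all probe sets lower and 6.41% higher at an adjusted p under 0.05 (limma, Benjamini-Hochberg over all probe sets). The median change was -0.113 over the collagens and -0.0276 over all probe sets. Below zero were 45 of 58 collagen probe sets and 12612 of all 22626. The basement membrane chains Col4a1 and Col4a2 showed differences close to zero.

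**Figure D1:**
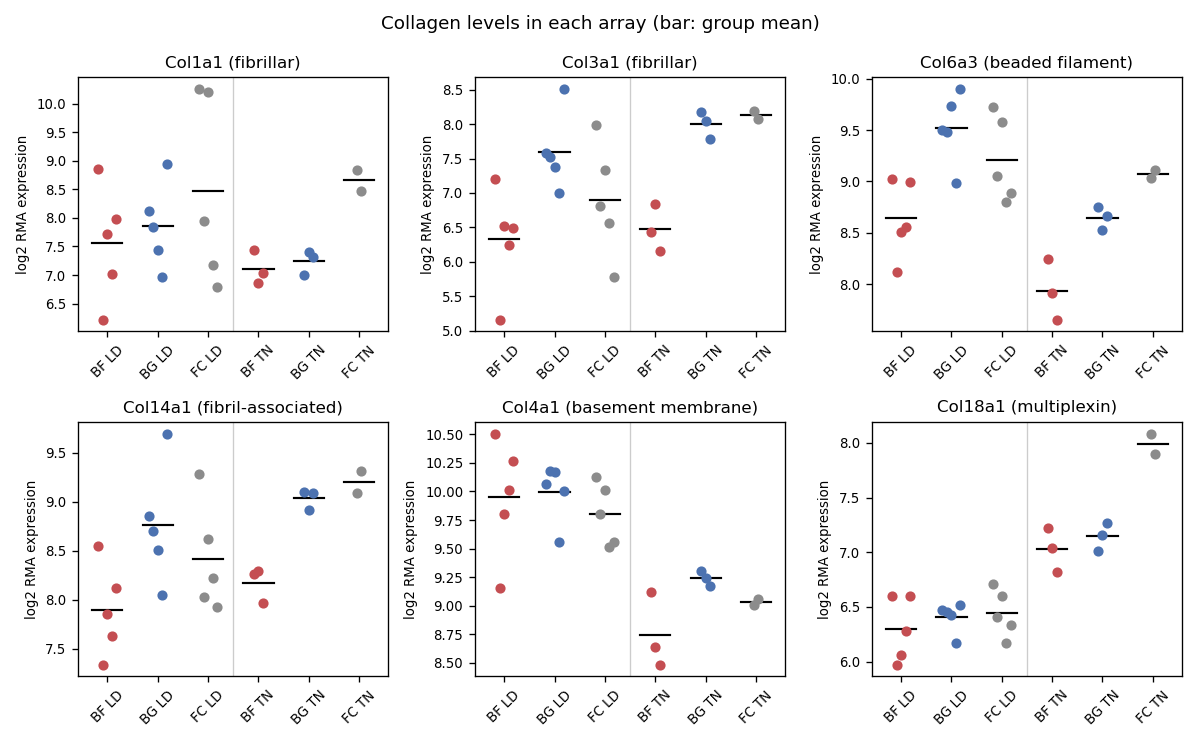
Log2 RMA expression (vertical axes, each with its own range) of 6 collagens in every array, with the 6 groups of muscle by housing on the horizontal axis, a point for each array and a bar for the group mean; the Col3a1 and Col18a1 panels show the dimmer probe set of the gene. In LD the BF points of Col6a3 lie between 8.12 and 9.03 and the BG points between 8.98 and 9.90, whereas in TN the Col3a1 points of BF, at 6.15 to 6.84, lie below all BG and FC points.

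Among the beaded filament collagens, Col6a3 measured 9.03, 8.12, 8.50, 8.56 and 8.99 in the 5 BF LD arrays and 9.51, 9.48, 9.73, 8.98 and 9.90 in the 5 BG LD arrays. BG replicate 4 was the only BG array inside the BF range. The difference was -0.88 (SE 0.196, adjusted p = 0.00664 by limma), a 1.84-fold lower level. Col6a2, another chain of the same heterotrimer, measured 9.43, 8.17, 8.56, 8.63 and 9.14 in BF and 9.43, 9.46, 9.69, 9.08 and 10.15 in BG. The BF and BG ranges of Col6a2 overlapped, with BF replicate 1 as high as the lower BG arrays. Its change was -0.78 (SE 0.245, adjusted p = 0.0449 by limma), and its other probe set fell by 0.77 (adjusted p = 0.0273). Col6a1 changed by -0.49 (SE 0.295, adjusted p = 0.317), which did not pass, and the median over the 4 beaded filament probe sets was -0.775.

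Among the fibrillar collagens, 16 of 17 probe sets were below zero, with a median of -0.328, and 2 passed the test. Col3a1, whose fibrils run through the muscle's connective tissue sheaths, measured 7.20, 5.16, 6.53, 6.25 and 6.50 in BF and 7.57, 7.53, 7.38, 7.002 and 8.51 in BG by its dimmer probe set. BF replicate 1 lay inside the BG range and the other 4 BF arrays lay below it. The change was -1.27 (SE 0.348, adjusted p = 0.0233 by limma), whereas the brightest Col3a1 probe set gave -0.77 (SE 0.388, adjusted p = 0.222), so the probe sets of this gene differed on the call. Col5a2, a type V chain that co-assembles with type I fibrils, measured 9.24, 7.61, 8.82, 8.37 and 8.79 in BF and 9.63, 9.40, 9.21, 8.82 and 10.09 in BG. The groups overlapped through BF replicates 1 and 3, and the change was -0.86 (SE 0.274, adjusted p = 0.0473 by limma). The companion type V chains Col5a1 and Col5a3 changed by -0.43 (adjusted p = 0.101) and 0.04 (adjusted p = 0.914).

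The type I chains, the most abundant collagen proteins of tendon and bone, were the widest in spread. Col1a1 measured 8.86, 6.21, 7.72, 7.03 and 7.98 in BF and 8.13, 7.84, 7.44, 6.96 and 8.95 in BG LD. Both groups covered much the same range, and the difference of -0.31 had a standard error of 0.566 (95% CI -1.48 to 0.87). Col1a2 gave -0.33 with a 95% CI of -1.27 to 0.61. A fall of the size measured for Col3a1 thus lay inside the interval of Col1a1.

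The FACIT Col14a1, which binds the surface of type I fibrils, measured 8.55, 7.33, 7.85, 7.63 and 8.12 in BF LD and 8.85, 8.71, 8.51, 8.04 and 9.70 in BG LD. BF replicates 1 and 5 lay inside the BG range. It fell by 0.87 on the log2 scale (SE 0.263, adjusted p = 0.0389 by limma). The dimmer Col14a1 probe set gave -0.425 (adjusted p = 0.32), so the probe sets of this gene also differed on the call. Over the 17 FACIT probe sets the median was -0.0511, and Col12a1, a FACIT of dense connective tissue, changed by 0.04 (adjusted p = 0.848). Of the multiplexins, which join basement membranes to the matrix around them, Col15a1 gave -0.53 (adjusted p = 0.118) and Col18a1 -0.08 (adjusted p = 0.768).

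In the basement membrane, none of 9 probe sets passed in LD. Col4a1 measured 10.51, 9.15, 9.80, 10.01 and 10.27 in BF and 10.07, 10.18, 10.17, 9.55 and 10.01 in BG, and the BF arrays lay on both sides of the BG arrays. Its difference was -0.05 (95% CI -0.44 to 0.35) and that of Col4a2, its partner in the common type IV trimer, -0.06 (95% CI -0.57 to 0.44). The rarer chains Col4a3, Col4a4, Col4a5 and Col4a6 gave -0.32, 0.25, 0.11 and -0.09, with adjusted p values of 0.184, 0.111, 0.796 and 0.633.

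**Figure D2:**
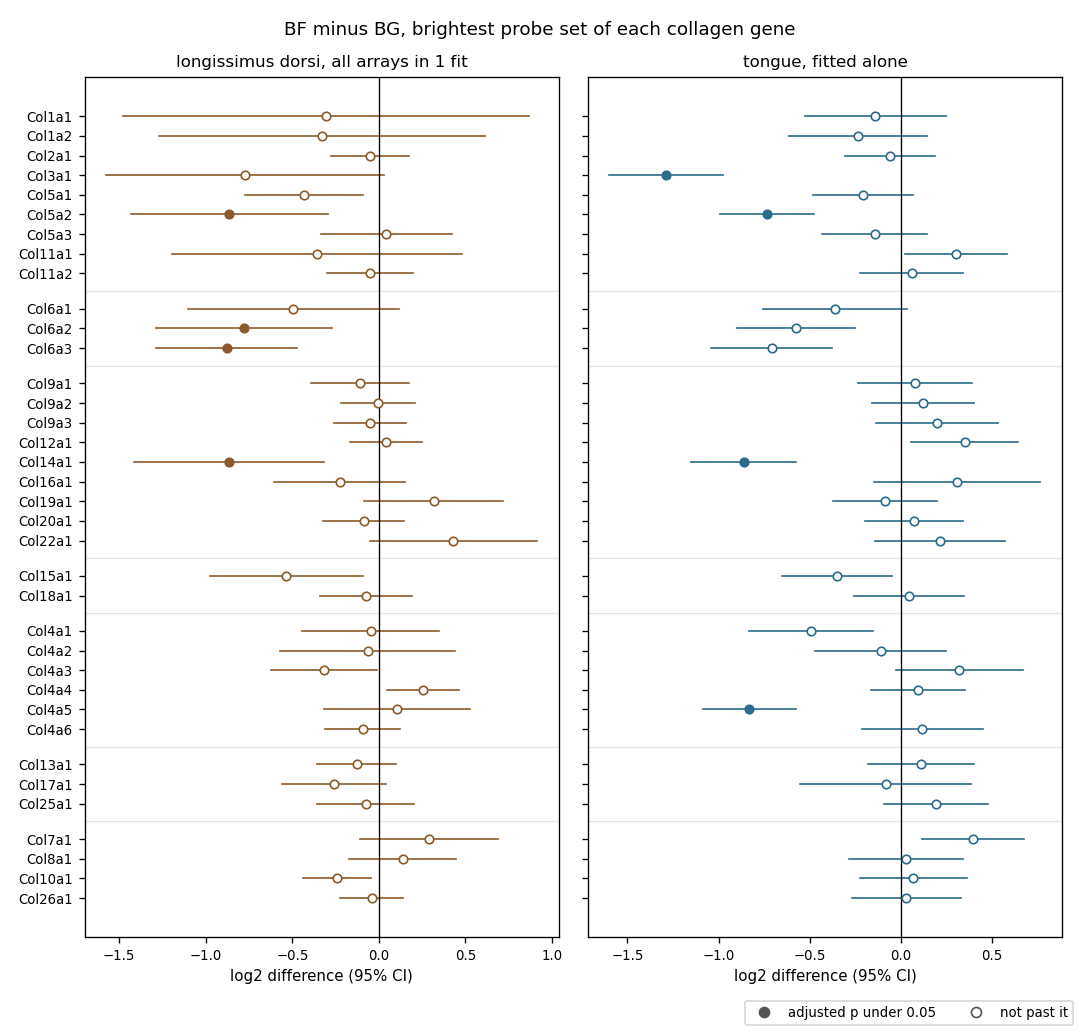
Difference in log2 expression, BF minus BG (horizontal axis), for the brightest probe set of each of 36 collagen genes, grouped from top to bottom as fibrillar, beaded filament, FACIT, multiplexin, basement membrane, transmembrane, and short chain or anchoring; bars are 95% confidence intervals, filled points have an adjusted p under 0.05, the left panel is LD in the fit of all arrays and the right panel TN fitted alone. Col5a2, Col6a2, Col6a3 and Col14a1 are filled on the left, Col3a1, Col4a5, Col5a2 and Col14a1 on the right, and the LD intervals of Col1a1 and Col1a2 are among the widest. The panels use different fits and are not on equal terms. With LD fitted alone only Col6a3 was called, and in the fit of all arrays no TN collagen was.

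The LD count depended on single arrays: 1 collagen probe set passed when BF replicate 2, BF replicate 4 or BG replicate 1 was left out, and 8 when BF replicate 1 was. With LD fitted alone Col6a3 was the only collagen called (adjusted p = 0.0208), 1.72% of the collagen probe sets against 2.79% of all probe sets lower in that fit. The collagen spread was wider in LD than in TN, and the fit of all arrays shares their error. The standard error of Col14a1 was 0.263 in that shared fit and 0.299 with LD alone. With LD alone Col14a1 and Col5a2 did not pass (adjusted p of 0.0838 and 0.1 by limma).

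Markers of other cells moved in both directions. Of 9 endothelial probe sets 2 were higher in BF than BG LD and none lower, with a median of 0.0833. Fibroblast and macrophage markers lay lower, and with LD fitted alone 2 of 16 fibroblast probe sets passed. Of 16 fibroblast marker probe sets, 5 were lower in BF than BG LD (Cd34, Thy1, Fap and both of Mfap5) with a median of -0.348, and the array means ran from 8.07 to 9.09 in BF and 8.70 to 9.74 in BG. The 17 macrophage probe sets were all below zero with a median of -0.622 and none passed; BG replicate 5, at 9.15, was the highest array for these and was also the highest BG array for Col6a2, Col6a3, Col3a1, Col5a2 and Col14a1. Without that array Col6a3 still fell by 0.78 on the log2 scale (adjusted p = 0.0105) and Col3a1 by 1.05 (adjusted p = 0.0412), while Col5a2 and Col14a1 were no longer called. The part of fibroblast or macrophage content in the collagen differences was not tested.

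Genes that handle collagen were taken from lists for folding, crosslinking, degradation, receptors and gene regulation. The folding list had 5 of 23 probe sets lower and 2 higher in BF than BG LD. Serpinh1, the collagen chaperone, measured 8.79, 8.59, 8.36, 8.54 and 9.01 in BF and 9.71, 9.14, 9.75, 9.10 and 10.69 in BG, with no overlap. It fell by 1.02 on the log2 scale (adjusted p = 0.00901 by limma), and by 1.11 for its other probe set (adjusted p = 0.00309). P4ha1, a catalytic subunit of the prolyl 4-hydroxylase that stabilises the helix, was at 7.77 to 7.95 in the BF arrays and 8.46 to 9.09 in the BG arrays, again without overlap (-0.87, adjusted p = 0.000797). Mia3, which helps load procollagen for export, rose by 0.47 (adjusted p = 0.00782).

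Beyond folding, Loxl3, a crosslinking oxidase, fell by 0.58 (adjusted p = 0.00754) and was the only one of 15 processing and crosslinking probe sets called. Of 29 degradation probe sets 1 was higher and 3 were lower, of 17 receptor probe sets 3 were higher and none lower, and of 26 regulator probe sets 2 were higher and none lower. Set against 6.41% of all probe sets higher and 3.83% lower, the higher shares of the degradation list (3.45%) and the regulator list (7.69%) and the lower share of the crosslinking list (6.67%) rest on 1 or 2 probe sets each and lie near the background. The 3 receptor probe sets all belonged to Ddr1, a collagen-binding kinase, and the one with the smallest adjusted p rose by 0.77 (adjusted p = 0.00843). Smad7, an inhibitor of TGF-beta signalling, rose by 0.48 with no overlap between the groups (adjusted p = 0.00156).

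Housing alone was addressed by FC against BG in LD, which shares the BG arrays with the comparison above. The FACITs Col22a1 and Col19a1 were higher in FC, 2 of 58 probe sets (3.45%) against 6.79% of all probe sets higher and 2.16% lower. Col22a1, a collagen of the myotendinous junction, measured 8.28, 7.77, 8.21, 7.51 and 6.64 in FC and 7.35, 6.74, 6.64, 6.46 and 6.92 in BG. FC replicate 5 lay within the BG range, and the difference was 0.86 (SE 0.233, adjusted p = 0.0247 by limma). The other Col22a1 probe set, 0.61 higher, missed the threshold (adjusted p = 0.0571). Col19a1 was 0.62 higher (adjusted p = 0.0476), with FC replicate 2 at 5.64 and the other FC arrays at 4.03 to 4.52, against 3.83 to 4.35 in BG. The other Col19a1 probe set differed by -0.04 (adjusted p = 0.813). Both probe sets lay low on the array scale, and the values come without a detection call. Leaving out any of FC replicates 2 and 3 and BG replicates 2 and 4, or fitting LD alone, left no collagen called. The median over all collagens was -0.0114, so the group as a whole lay close to zero.

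Col1a1 measured 10.26, 7.95, 10.20, 7.17 and 6.79 in FC LD, and FC replicates 1 and 3 lay above every BF and BG array. These were the arrays with the highest tendon marker means, 9.86 and 9.81. The tendon markers had a median change of 1.02 in FC against BG and -0.442 in BF against BG. Across the 15 LD arrays, with values taken as deviations from the group mean, the tendon mean was correlated with each of the 36 collagens, and at an adjusted p under 0.05 by permutation 8 correlations passed by Pearson's r, all positive, and 4 by Spearman's rho, those of Col11a1, Col1a1, Col1a2 and Col22a1. Col11a1, a minor fibrillar chain of cartilage and tendon, gave r = 0.898 (Spearman rho 0.854, permutation p of 0.00093 and 0.00237, adjusted p of 0.0167 and 0.0359). Col22a1 gave r = 0.846 (rho 0.832, permutation p of 0.00037 and 0.00151, adjusted p of 0.0133 and 0.0359) and Col1a1 r = 0.844 (rho 0.811, permutation p of 0.00237 and 0.00399, adjusted p of 0.0221 and 0.0359). Without FC replicates 1 and 3 these became 0.793, 0.724 and 0.664. For Col6a3 the value was 0.611 (rho 0.607, permutation p of 0.0376 and 0.0402, adjusted p of 0.113 and 0.122) and 0.319 without those arrays, and for Col4a1 it was 0.4 (rho 0.475, permutation p of 0.105 and 0.0984, adjusted p of 0.198 and 0.186) and 0.198.

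**Figure D3:**
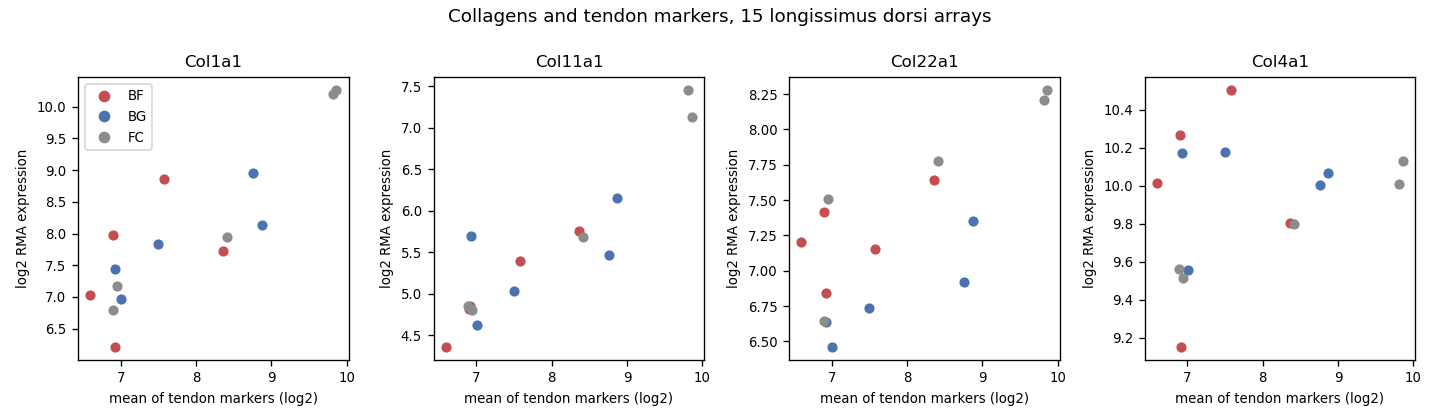
Log2 RMA expression of Col1a1, Col11a1, Col22a1 and Col4a1 (vertical axes) against the mean of the tendon markers (horizontal axes, log2) in the 15 LD arrays, coloured by housing group. Points rise together for Col1a1, Col11a1 and Col22a1, with FC replicates 1 and 3 at the upper right at a tendon mean of 9.86 and 9.81, while Col4a1 shows a looser relation (r = 0.4).

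With the tendon mean as a covariate, a setting chosen after the data were seen, Col6a3 fell by 0.76 in BF against BG LD (adjusted p = 0.00487), Col3a1 by 1.01 (adjusted p = 0.0131), Col14a1 by 0.68 (adjusted p = 0.0326), Col5a2 by 0.66 (adjusted p = 0.0371) and Col6a2 by 0.61 (adjusted p = 0.0435). All 5 genes kept their call in that fit. With LD fitted alone and the same covariate fewer collagen probe sets were called than with all arrays. They were more than the 1 called with LD alone and no covariate. The part of tendon content in these differences was not tested.

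Of the handling genes in FC against BG LD, Smad7 rose by 0.47 (adjusted p = 0.00348), Smad4 by 0.60 (adjusted p = 0.00367), Mia3 by 0.52 (adjusted p = 0.00581), Srf, an actin-linked transcription factor, by 0.58 (adjusted p = 0.00846) and Colgalt1, which glycosylates collagen lysines, by 0.56 (adjusted p = 0.00989). Serpinh1 differed by -0.42 with overlapping groups (adjusted p = 0.286).

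BF against FC in LD, where habitat and flight both differed, gave no collagen past the threshold by limma, against 3.66% of all probe sets, and 12 of 58 at an unadjusted p under 0.05 (20.7%, against 15.9% of all probe sets). Of the 58, 47 were below zero with a median of -0.139, against 12870 of all 22626 probe sets with a median of -0.0259. The 4 beaded filament probe sets were all below zero with a median of -0.726, the largest single value among them being -0.82 for Col6a1 (SE 0.295, adjusted p = 0.139). The 11 tendon marker probe sets were all below zero too, with a median of -1.42 and none called, and their part in the collagen values was not tested. P4ha1 fell by 0.80 (adjusted p = 0.00309), and Plod2, the lysyl hydroxylase of crosslink sites, fell in both of its probe sets, by 0.63 and 0.65 (adjusted p of 0.00386 and 0.0175). Timp3, an inhibitor of metalloproteinases, rose by 0.72 (adjusted p = 0.00293), and Serpinh1 differed by -0.60 (adjusted p = 0.195).

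In TN, a muscle that is not loaded against gravity in the same way, BF against BG gave no called collagen when all arrays shared the error, by limma, against 0.826% of all probe sets, and 8 of 58 at an unadjusted p under 0.05 (13.8%, against 15.4% of all probe sets). The collagen spread was wider in LD, and with TN fitted alone the standard error of the brightest Col3a1 probe set was 0.141 in place of 0.5. In that fit 5 of 58 probe sets (8.62%) of 4 genes, Col3a1, Col14a1, Col4a5 and Col5a2, were lower and none higher, against 0.155% of all probe sets lower and 0.133% higher. The fit rests on 8 arrays and 5 residual degrees of freedom. With 3 BF and 3 BG arrays, probe sets also separated between the groups without a call. Examples are the brightest of Col4a1 (lower in BF, adjusted p = 0.157 by limma) and Col7a1 (higher in BF, adjusted p = 0.165). Separation of the arrays alone thus says little.

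Col3a1 measured 11.10, 10.79 and 10.57 in BF TN and 12.18, 12.07 and 12.07 in BG TN by its brightest probe set. No BF array reached the BG arrays, and with TN alone it fell by 1.29 (SE 0.141, adjusted p = 0.0075 by limma), or 1.52 for the other probe set (adjusted p = 0.0075). Col14a1 measured 8.27, 8.29 and 7.96 in BF and 9.10, 8.92 and 9.09 in BG. It also did not overlap, and it fell by 0.86 (SE 0.131, adjusted p = 0.0301 by limma). The dimmer Col14a1 probe set overlapped between the groups and gave -0.28, which did not pass (adjusted p = 0.364 with TN alone). Col5a2 measured 8.49, 8.40 and 8.24 in BF and 8.99, 9.23 and 9.10 in BG, and fell by 0.73 (adjusted p = 0.037 by limma), again without overlap.

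Col4a5, an X-linked chain of restricted basement membranes, measured 6.92, 7.08 and 6.87 in BF TN and 7.93, 7.75 and 7.70 in BG TN. It fell by 0.83 with TN alone (SE 0.116, adjusted p = 0.0239 by limma), without overlap. Its dimmer probe set was not called. Col6a3 measured 8.24, 7.92 and 7.65 against 8.75, 8.53 and 8.67, which did not overlap either, but the difference of -0.71 did not pass (adjusted p = 0.0759 with TN alone, 0.171 with all arrays). Col1a1 differed by -0.14 with overlapping arrays (95% CI -0.53 to 0.25 with TN alone, -1.66 to 1.38 with all arrays).

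With TN fitted alone, leaving out 1 array gave between 0 and 8 called collagens in BF against BG: none when BG replicate 1 was left out, 1 for BF replicate 1, 2 for BF replicate 3 or BG replicate 2, and 8, 1 of them higher, for BF replicate 2. Fibroblast marker means were 8.94 to 9.18 in BF TN and 9.44 to 9.59 in BG TN, without overlap, and 3 of 16 fibroblast probe sets, both of Mfap5 and that of Fap, passed in the same fit. Their part in the collagen differences was not tested. None of the collagen-handling lists had a called probe set in the fit of all arrays. Serpinh1 measured 8.61, 8.48 and 7.97 in BF and 9.24, 9.16 and 8.85 in BG, a difference of -0.73 that did not pass (adjusted p = 0.253, or 0.0967 with TN alone), although the groups did not overlap.

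The test of whether BF minus BG differed between LD and TN found no collagen past the threshold by limma, against 0.172% of all probe sets, and 4 of 58 had an unadjusted p under 0.05 (6.9%, against 12.1% of all probe sets). The smallest of these was for Col4a5, with a difference of 0.94 between the muscles (SE 0.331, adjusted p = 0.254). Col3a1, Col5a2 and Col14a1 thus had a negative difference in both muscles, and in this fit the muscles were not shown to differ for any collagen. With array weights the difference passed for 2 probe sets, those of Col4a3 (-0.94, adjusted p = 0.0146 by limma) and of Col4a6 (-0.95, adjusted p = 0.04). LD and TN samples share numbers in the labels, but whether those with the same number came from the same animals is not given in the sources used here.

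The effect of housing alone in TN was read from FC against BG, which shares the BG arrays with BF against BG. In all, 4 of 58 probe sets (6.9%) were higher in the fit of all arrays and none lower, against 5.13% of all probe sets higher and 4.33% lower. They belonged to Col7a1, which forms the anchoring fibrils under stratified epithelium, the FACIT Col16a1, the multiplexin Col18a1, source of the fragment endostatin, and the basement membrane chain Col4a6. With TN fitted alone 16 of 58 (27.6%) were higher and none lower, against 5.3% of all probe sets higher and 3.92% lower. These included both chains of type I collagen, Col5a1, Col5a3, Col6a1, Col6a2, Col14a1, Col15a1 and Col22a1. Col14a1 was called by its dimmer probe set only, and its brightest gave 0.17 (adjusted p = 0.545 with TN alone). Col5a1, Col5a3 and Col22a1 also had a probe set that was not called.

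Col7a1 measured 7.66 and 7.57 in the FC TN arrays and 6.57, 6.35 and 6.58 in the BG TN arrays. The difference of 1.12 (SE 0.277, adjusted p = 0.015 by limma) was the largest of those called with all arrays. Col18a1 measured 8.08 and 7.90 in FC and 7.01, 7.15 and 7.27 in BG by its dimmer probe set, 0.84 higher in FC (SE 0.186, adjusted p = 0.00756). The brightest Col18a1 probe set, 0.52 higher, was called in neither fit (adjusted p = 0.0764, or 0.0577 with TN alone). Col16a1 measured 7.80 and 7.73 against 6.97, 6.43 and 6.95, and was 0.98 higher (adjusted p = 0.0218). The arrays of all 3 genes were separate between the groups, but so were those of many collagen probe sets that were not called. With 2 FC and 3 BG arrays, separation alone says little. Col4a6 was 0.60 higher (adjusted p = 0.0167), but with TN alone it missed the threshold (adjusted p = 0.0506), and its other probe set was called in neither fit.

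Col1a1 measured 8.85 and 8.47 in FC TN and 7.003, 7.41 and 7.32 in BG TN, without overlap. With TN alone the difference was 1.41 (SE 0.196, adjusted p = 0.00376 by limma), and with all arrays the same difference had a standard error of 0.817 (adjusted p = 0.326). Col6a1 measured 10.05 and 9.95 in FC and 9.02, 8.82 and 8.86 in BG, 1.10 higher with TN alone (SE 0.201, adjusted p = 0.0107). Col3a1, in contrast, was at 12.41 and 12.56 in FC and 12.07 to 12.18 in BG, and its difference of 0.37 did not pass with all arrays (adjusted p = 0.787) or with TN alone. Fibroblast marker means overlapped here, at 9.50 to 9.53 in FC and 9.44 to 9.59 in BG. Other markers stood apart: Schwann cell means were 8.14 to 8.15 in FC and 7.75 to 7.78 in BG, endothelial means 7.35 to 7.44 and 7.19 to 7.26, and tendon means 6.11 to 6.27 and 5.77 to 6.02. With TN alone 5 of 15 Schwann cell, 2 of 9 endothelial and 1 of 11 tendon probe sets were higher. Of the 9 endothelial probe sets 5 were below zero, and their median was -0.0469. In the same fit 2 of 16 fibroblast and 2 of 17 macrophage probe sets were lower. With the tendon mean as a covariate in that fit, a setting chosen after the data were seen, 2 of the 16 collagen calls were left, those of Col1a1 and Col7a1. Because the tendon means of FC and BG did not overlap, that fit cannot separate the covariate from housing. The part of tendon, Schwann cell, endothelial, fibroblast or macrophage content in the collagen differences was not tested. Serpinh1 differed by 0.26 with overlapping arrays (adjusted p = 0.745 with all arrays).

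**Figure D4:**
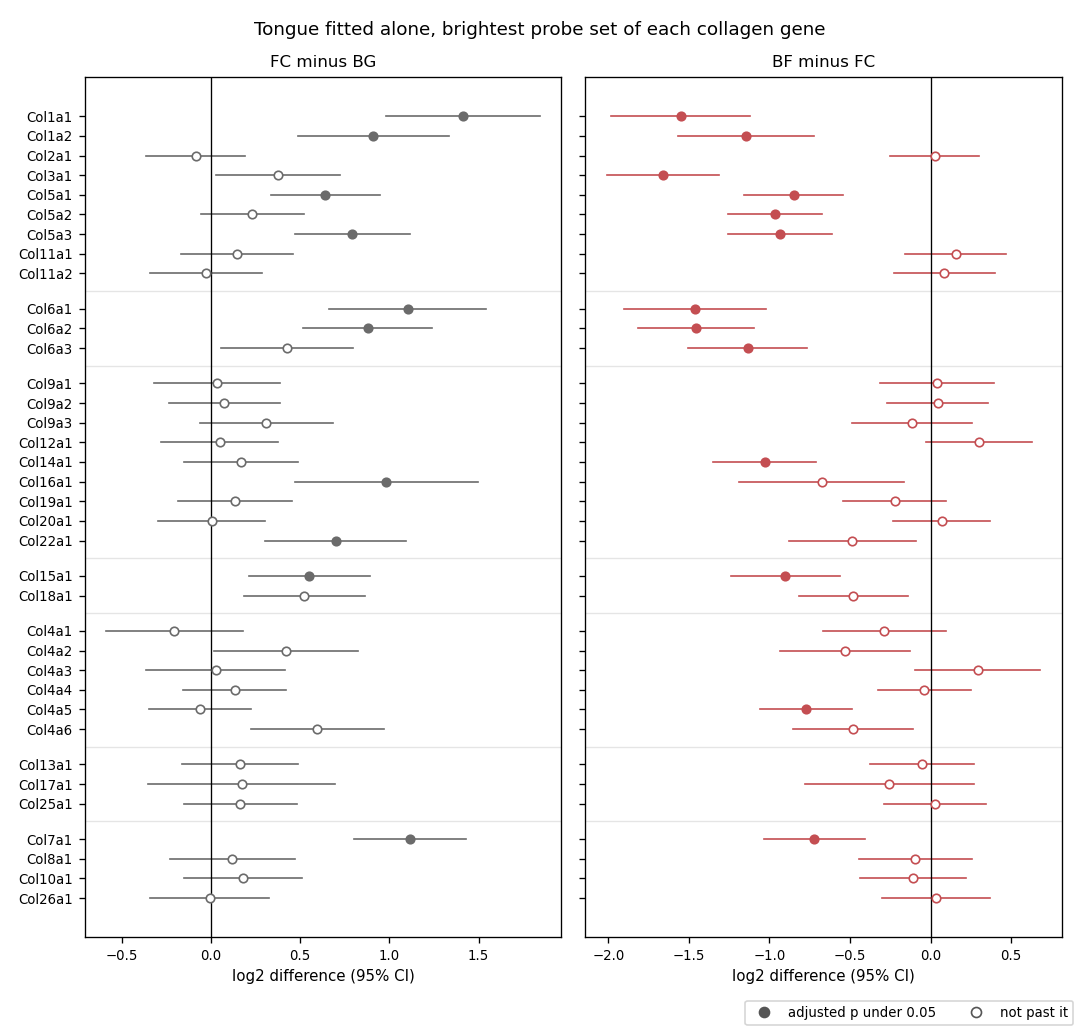
Difference in log2 expression for the brightest probe set of each of 36 collagen genes in TN fitted alone, FC minus BG on the left and BF minus FC on the right (horizontal axes), with the genes grouped from top to bottom as fibrillar, beaded filament, FACIT, multiplexin, basement membrane, transmembrane, and short chain or anchoring; bars are 95% confidence intervals and filled points have an adjusted p under 0.05. Col1a1, at 1.41 on the left and -1.55 on the right, and Col6a1, at 1.10 and -1.46, are filled in both panels, which share the FC arrays.

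BF against FC in TN had 3 probe sets lower with all arrays (5.17%), those of Col18a1, Col6a2 and Col6a3, against 1.08% of all probe sets lower. With TN alone 20 of 58 (34.5%) were lower and none higher, against 1.75% of all probe sets lower and 1.45% higher. With all arrays as alone, the class medians were -0.849 for fibrillar, -1.29 for beaded filament and -0.288 for basement membrane probe sets. All 4 beaded filament and 10 of 17 fibrillar probe sets were called with TN alone, and 1 of 9 basement membrane probe sets, that of Col4a5. Fibroblast marker means were also lower in BF TN, at 8.94 to 9.18 against 9.50 to 9.53 in FC, with 15 of 16 fibroblast probe sets below zero (median -0.357) and 2 called lower with TN alone. Schwann cell means were 7.85 to 7.91 in BF and 8.14 to 8.15 in FC. The part of these cells in the collagen differences was not tested.

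Col6a3 measured 8.24, 7.92 and 7.65 in BF TN and 9.03 and 9.11 in FC TN. It fell by 1.13 (SE 0.283, adjusted p = 0.0348 by limma with all arrays), and Col6a2, at 8.70, 8.21 and 8.18 against 9.89 and 9.74, fell by 1.45 (SE 0.353, adjusted p = 0.029). Neither gene overlapped between the groups. The brightest Col3a1 probe set, at 11.10, 10.79 and 10.57 against 12.41 and 12.56, gave -1.66 with the smallest adjusted p of the collagens with TN alone (0.000994 by limma). Col1a1 fell by 1.55 (adjusted p = 0.00377), Col1a2 by 1.15 (adjusted p = 0.0114) and Col6a1 by 1.46 (adjusted p = 0.00479) in that fit. The dimmer Col18a1 probe set fell by 0.96 (adjusted p = 0.00659 with all arrays), while the brightest, at -0.48, did not pass (adjusted p = 0.193 with all arrays).

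Both TN comparisons with FC rest on 2 FC arrays. With TN alone, FC against BG had 0 called collagens without FC replicate 1 and 2 without FC replicate 2, whereas 9 and 10 of the 16 remained called on leaving out BG replicate 1 or 2, and BF against FC had 1 and 4 without the respective FC array. With all arrays, both counts were 0 without FC replicate 1, and a lone FC array is then assumed to vary like the other groups.

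Among the handling genes of TN with all arrays, Timp3 rose in BF against FC in both of its probe sets, by 0.81 and 0.82 (adjusted p of 0.0167 and 0.021), and P4ha2, a prolyl 4-hydroxylase subunit, fell by 0.67 (adjusted p = 0.0383). With TN alone Pcolce, which speeds removal of the procollagen C-propeptide, fell by 1.47 (adjusted p = 0.00683), Sparc, a collagen-binding glycoprotein, by 0.98 (adjusted p = 0.0175), Ccn2, a matrix growth factor, by 0.99 (adjusted p = 0.0064) and Serpinh1 by 0.99 (adjusted p = 0.0235, against 0.141 with all arrays), while its other probe set, at -0.61, missed the threshold (adjusted p = 0.0714). In FC against BG with all arrays Smad4 rose by 0.77 (adjusted p = 0.00664), Srf by 0.84 (adjusted p = 0.00744) and Sp1, a factor that binds GC boxes, by 0.80 (adjusted p = 0.0235).

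The muscles differed in collagen make-up under every housing. In BG, 5 of 58 probe sets (8.62%) were higher in TN than LD and 18 (31%) lower, against 19.8% and 34.3% of all probe sets. In FC 10 (17.2%) were higher and 11 (19%) lower, against 19.1% and 27.7% of all, and in BF 5 (8.62%) and 13 (22.4%), against 18.3% and 27.5%. All of these collagen shares lay below those of all probe sets. Col17a1, the transmembrane collagen of epithelial hemidesmosomes, was at 3.38 to 4.25 in the 15 LD arrays and 9.99 to 10.99 in the 8 TN arrays. The log2 difference between TN and LD was 6.65 in BG, 6.74 in FC and 6.82 in BF. Because the LD values lay low on the array scale, with 9.35% of all probe sets below the BG mean, and the values come without a detection call, no fold is given. Epithelial markers stood higher in TN as well, by a median difference of 6.07 in BF.

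The basement membrane chains split between the muscles. Col4a5 was higher in TN by 2.40 in BG (SE 0.234, adjusted p = 1.38e-08), 2.12 in FC and 1.46 in BF. Col4a1 was lower in TN by 0.76 in BG (adjusted p = 0.00667), 0.77 in FC and 1.20 in BF, and Col4a2 by 0.98 in BG and 1.03 in BF. Col4a3 was lower by 0.70 in BG (adjusted p = 0.00155) and 0.57 in FC. The multiplexins were also on opposite sides in BG, with Col18a1 0.59 higher (adjusted p = 0.00214) and Col15a1 0.91 lower in TN (adjusted p = 0.00398).

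Col22a1, Col19a1, Col5a3 and Col2a1, the main cartilage collagen, were lower in TN under all 3 housings (Col5a3 in FC by its dimmer probe set only), Col22a1 by 0.95 in BG, 1.12 in FC and 1.17 in BF. Col11a1 was lower in TN by 1.36 in BG (adjusted p = 0.0185) and 1.81 in FC (adjusted p = 0.00811), but the tendon markers were lower in TN too, with a median of -2.5 in BG and -3.26 in FC. For Col1a1, Col1a2, Col3a1 and Col6a1 the muscles did not differ past the threshold by the brightest probe set under any housing, with differences in BG of -0.62 (SE 0.654), -0.10 (SE 0.524), 0.15 (SE 0.448) and -0.33 (SE 0.34). Col6a3 was 0.87 lower in TN in BG (adjusted p = 0.00279) and 0.70 lower in BF (adjusted p = 0.0138), and did not pass in FC.

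**Figure D5:**
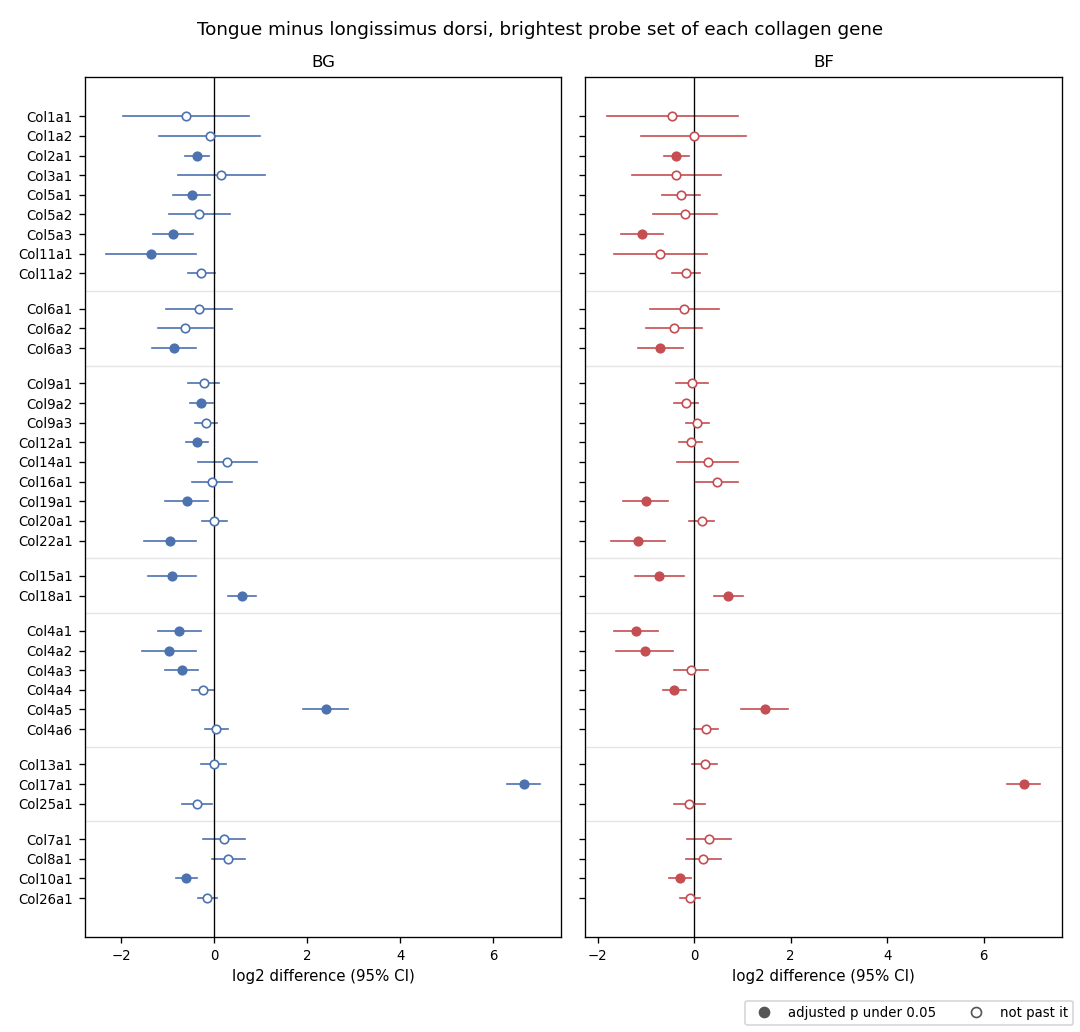
Difference in log2 expression, TN minus LD (horizontal axes), for the brightest probe set of each of 36 collagen genes in BG mice on the left and BF mice on the right, grouped from top to bottom as fibrillar, beaded filament, FACIT, multiplexin, basement membrane, transmembrane, and short chain or anchoring; bars are 95% confidence intervals and filled points have an adjusted p under 0.05. Col17a1 stands far to the right in both panels, at 6.65 and 6.82, and Col4a5 follows at 2.40 and 1.46.

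The collagens with no probe set past the threshold in any comparison within a muscle, in either fit, were the basement membrane chains Col4a1, Col4a2, Col4a3 and Col4a4, the fibrillar Col2a1, Col11a1 and Col11a2, the FACITs Col9a1, Col9a2, Col9a3, Col12a1 and Col20a1, the transmembrane Col13a1, Col17a1 and Col25a1, and Col8a1, Col10a1 and Col26a1. Col17a1, with its large difference between the muscles, stayed within 9.99 to 10.99 over all TN arrays, and its BF minus BG difference in TN was -0.08.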

How the data were processed

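Biotin-labelled RNA of the 23 samples was hybridised to Affymetrix Mouse Genome expression arrays. The deposited log2 values were made by the authors with Robust Multichip Average (RMA) in Partek, 22626 probe sets per array; how replicates or batches were handled before that is not given in the sources used here. RMA puts all arrays on a common distribution, so a change shared by most genes would not be seen. From these values 1 linear model with 6 group means was fitted in limma 3.58.1 (R 4.3.3) over all probe sets, with 17 residual degrees of freedom, no pseudocount and no filter on low values. P-values of a comparison were adjusted (Benjamini-Hochberg, 22626 probe sets) and called under 0.05, and standard errors are the moderated ones. Each muscle was also fitted alone. The procedure was tested on simulated data. Gene names came from the platform annotation. The text names the main muscle collagens in any case, other collagens past the threshold, at most 6 handling genes per comparison by adjusted p, and Serpinh1. The members and lists were chosen with earlier results of these data known. Correlations used 100000 permutations. Alternatives changed the moderation, normalization, filter, array weights, probe sets per gene, fold threshold, replicate block and arrays used. Promoter windows were read from a RefSeq table.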

Additional observations from a re-analysis of the deposited data

Results flagged for a closer look

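Within groups of 4 or more arrays, the gap of the highest or lowest array to its nearest neighbour was compared with Dixon's critical value for 39 collagen probe sets, 117 groups in all, of which chance alone gives about 1 in 20. In 3 of them an array stood apart. Col16a1 measured 7.479 in FC LD replicate 1, against 6.739 in the next array, and that array also had the highest tendon marker mean. The dimmer Col18a1 probe set measured 6.167 in BG LD replicate 4, against 6.423 in the next array. Col4a1 measured 9.555 in the same array, against 10.006 in the next. The values were kept in all comparisons.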

How the results depend on the processing

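The counts of called collagen probe sets, 6, 2 and 0 in LD (BF against BG, FC against BG, BF against FC), 0, 4 and 3 in TN and 23, 21 and 18 for TN against LD (BG, FC, BF), moved with the processing, while every called difference kept its direction with 1 exception. With each muscle fitted alone the LD counts for BF against BG and FC against BG were 1 and 0, and the TN counts 5, 16 and 20. Without variance moderation BF against BG and FC against BG in LD and BF against FC in TN gave 1 each, and with a trended, robust prior the LD counts were 3 and 1. With only probe sets at or above the median level FC against BG and BF against FC in LD gave 1 each, and TN against LD gave 11, 8 and 8. Median centring left 1 in FC against BG LD. Array weights gave 11 in BF against BG LD, 3, 11 and 14 in TN and 2 for the difference between muscles. Keeping 1 probe set per gene left 0 in BF against FC TN. Asking also for a change over 2-fold left 1 in BF against BG LD, 0 in FC against BG LD, 1 in FC against BG TN and 5, 11 and 9 for TN against LD. With the replicate number as a replicate block, BF against FC gave 2 in LD and 5 in TN, with other counts within 1.5 times; the same-numbered arrays correlated from -0.218 to 0.545 in LD and from -0.0982 to 0.383 in TN, so the numbers were not taken to pair the samples.

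A setting chosen after seeing the data used the tendon marker mean as a covariate: FC against BG LD gave 4 and the TN counts were 1, 9 and 8. With each muscle alone and this covariate, BF against BG LD gave 3 and the TN counts were 3, 2 and 20. Under this covariate the dimmer Col11a1 probe set reversed between TN and LD in FC mice, to 0.09934 from -1.91 (adjusted p = 0.821).

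Leaving out 1 array at a time gave 1 to 8 in BF against BG LD, 0 to 2 in FC against BG LD, 0 to 3 in BF against FC LD, 0 in every case in BF against BG TN and for the difference between muscles, 0 to 4 in FC against BG TN, 0 to 3 in BF against FC TN, and 17 to 23, 12 to 22 and 16 to 19 for TN against LD; the count of 12 was that without FC TN replicate 1 or 2. In BF against FC LD the count reached 3 without BF replicate 1 or FC replicate 5. With TN fitted alone, also chosen after seeing the data, the ranges were 0 to 8, 0 to 13 and 1 to 22. The cause of these shifts was not tested. Small numbers of arrays, 2 in FC TN, limit all TN counts.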
